A study of Arvicanthis niloticus with 7 samples.

Results

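The comparison set the livers of Nile rats (NRs, *Arvicanthis niloticus*) given palm fruit juice (PFJ) against those of control NRs on 5 of the 7 arrays of the series, namely PFJ replicates 1 to 3 and control replicates 1 and 2. NRs are grass rats that develop type 2 diabetes on diets rich in carbohydrate, and PFJ is a phenolic-rich water extract of the oil palm fruit. All animals were males that began a high-carbohydrate diet at 3 weeks of age and ate it for 4 weeks. The control group received the diet only, and the PFJ group received it with PFJ, which brought the diet to 5.4 g of gallic acid equivalents per kg. No label ties an array to an animal, and p-values therefore measure the spread between these samples.

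The 5 arrays were chosen by how alike they were, which is a description and was not tested. Over the 5763 probes detected on at least 2 of the 7 arrays, the 5 arrays correlated with one another at 0.959 to 0.981, whereas control replicates 3 and 4 correlated with them at 0.721 to 0.74 and with each other at 0.984. The median log2 level of the tested hepatocyte markers was 5.61 and 5.40 on control replicates 3 and 4 and between 10.98 and 11.50 on the other arrays. On the 5 arrays, 7 of the 9 hepatocyte markers with a probe were detected, and *Alb* and *Fgb* were not detected on any of them. The array carries probes designed on mouse transcripts, and a mouse probe that differs from the NR transcript can read background. Of 12 kidney markers with a probe, 3 were detected on the 5 arrays, and markers of lymphocytes, neutrophils, cholangiocytes, exocrine pancreas and skeletal muscle were detected on none.

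The liver makes most of the proteins of the blood plasma, among them the apolipoproteins that carry lipids and the inhibitors that hold proteases in check. It also oxidises foreign compounds, plant phenolics included, with cytochromes P450 and joins them to glucuronic acid with UDP-glucuronosyltransferases. In mice, the liver secretes major urinary proteins, small carriers of pheromones that leave the body with the urine.

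The group difference was small beside the spread between arrays for most of the 3773 genes tested. A gene was tested when its probe was detected, at a detection p under 0.01 against the negative controls of the array, on at least 2 of the 5 arrays, so that genes seen in one group alone were included. At an unadjusted p under 0.05 from limma, 62 genes were up-regulated in the PFJ group (1.64% of those tested) and 71 were down-regulated (1.88%), where a threshold of 5% would give 189 genes on average if none differed. After adjustment over all genes, 1 gene was down-regulated (0.0265%) and 0 were up-regulated, the lowest adjusted p for a gene with a higher level being 0.226 from limma. The median log2 difference of all genes was -0.0134, and 98.4% of the genes differed by less than 1 on the log2 scale. In bulk tissue, fewer cells of a type and less RNA per cell cannot be told apart.

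Correlations within and between the groups overlapped. Over the tested genes, the 2 control arrays correlated at 0.974, the pairs of PFJ arrays at 0.957 to 0.973 and the 6 pairs of a control with a PFJ array at 0.957 to 0.981. The highest of these values belonged to control replicate 1 with PFJ replicate 1. The median absolute log2 difference was 0.235 between the control arrays and 0.313 to 0.376 between PFJ arrays. In 284 genes (7.53%) all 3 PFJ arrays lay above both control arrays, and in 319 (8.45%) they lay below both. The calls rested on few arrays. Without control replicate 1, 50 genes passed the unadjusted threshold as higher and 38 as lower, and without control replicate 2 the counts were 55 and 22, of which 17 and 5 were among the original 62 and 71. Without PFJ replicate 2 they were 103 and 146.

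**Figure D1:**
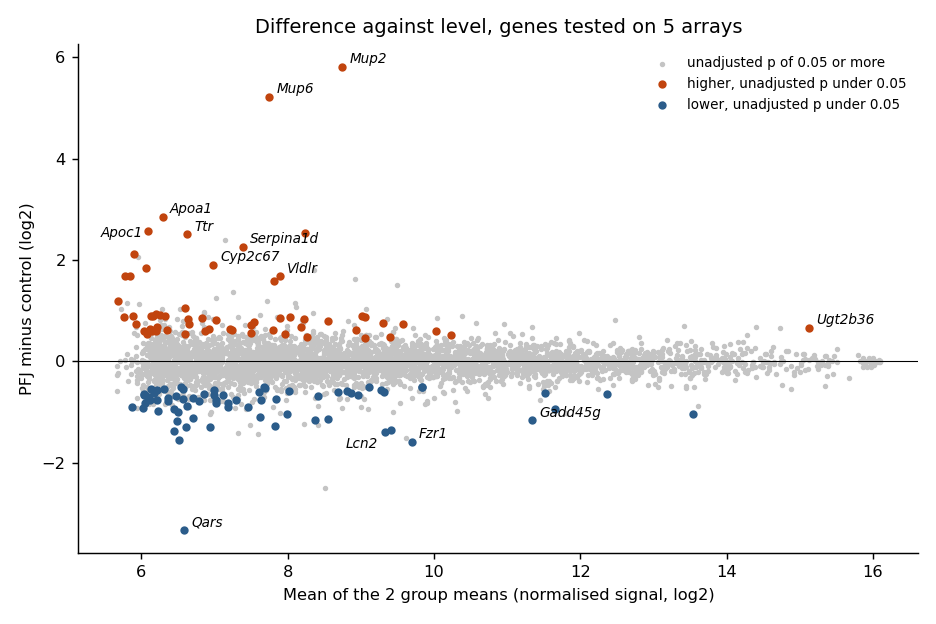
Difference between the groups against level. Each point is 1 of the 3773 genes tested, with the mean of the 2 group means on the x axis and the PFJ minus control difference on the y axis, both on the log2 scale, and the 62 higher and 71 lower genes at an unadjusted p under 0.05 are coloured. *Mup2* and *Mup6* stand above and *Qars* below the other genes, and most coloured points lie at low levels.

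The major urinary proteins had the lowest p-values among the genes that were higher with PFJ. *Mup2* had log2 levels of 5.32 and 6.36 on control replicates 1 and 2 and of 10.41, 11.83 and 12.71 on PFJ replicates 1, 2 and 3. Both control values lay at or near background, where the gene was detected on 1 control array, and all 3 PFJ values stood well clear of them. The group means were 5.84 ± 0.74 (SD, n = 2) and 11.65 ± 1.16 (SD, n = 3), a log2 difference of 5.81 (standard error 0.68; limma gave an adjusted p of 0.226). Every PFJ array detected *Mup6*, at 9.01, 10.43 and 11.65, whereas neither control array did, its probe reading 5.05 and 5.23 there. The PFJ signal of *Mup6* exceeded that of controls at least 17.42-fold (limma adjusted p of 0.347), a bound that sets the PFJ mean against the lowest signal that counts as detected on each control array. A second probe of *Mup2* read 4.78 and 4.79 in the control group and 6.46, 8.04 and 9.39 in the PFJ group. These 3 probes, the only ones kept of 8 for 5 *Mup* genes, were lowest on PFJ replicate 1 and highest on PFJ replicate 3. The 5 probes of *Mup5*, *Mup20* and *Mup21* were detected on at most 1 array and differed by 0.00 to 0.78 on the log2 scale. The median of the 2 tested genes was 5.52, and that of all 5 genes without the detection filter was 0.78. The genes of this family are near-identical copies in the mouse, and a probe may read more than 1 of them. On control replicates 3 and 4, which did not enter the comparison, neither gene was detected.

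**Figure D2:**
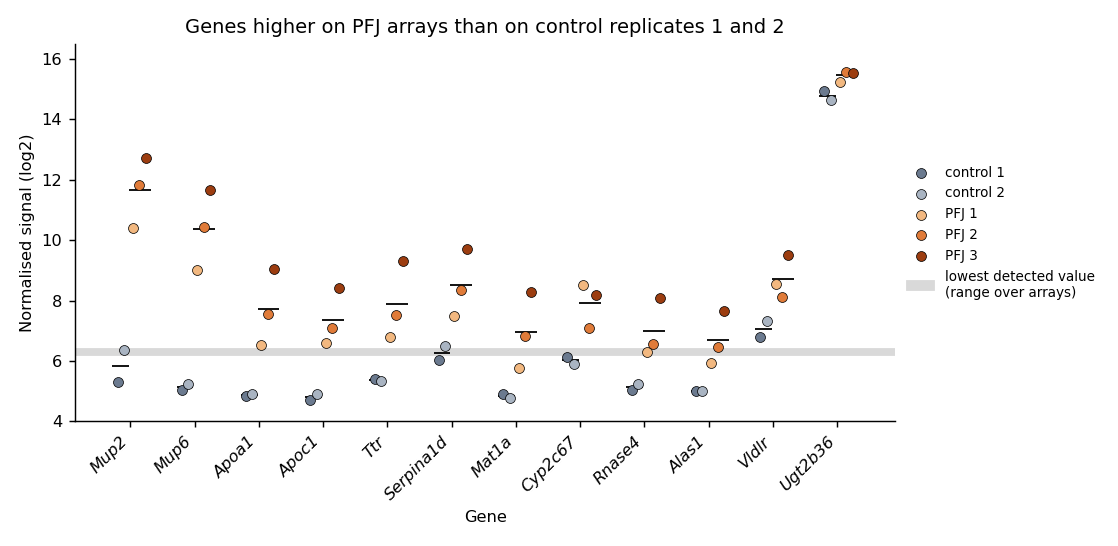
Genes with higher levels in the PFJ group. Points are the normalised log2 signals of 12 genes on each of the 5 arrays, short lines are group means, and the grey band is the range over arrays of the lowest signal that counted as detected. In 9 of the genes both control points lie in or below the band, in *Serpina1d* 1 of them does, and *Vldlr* and *Ugt2b36* were above it in both groups.

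Of the 9 tested apolipoprotein genes, 3 were up-regulated at the unadjusted threshold (33.3%, against 1.64% of all genes). None, or 0, were down-regulated (against 1.88% of all genes), and the median log2 difference of the 9 was 0.43. *Apoa1*, the main protein of high-density lipoprotein, read 4.83 and 4.89 on the control arrays and 6.53, 7.57 and 9.06 on the PFJ arrays. *Apoc1*, which is carried on the same particles, read 4.70 and 4.91 against 6.60, 7.09 and 8.43. No control array detected either gene and each PFJ array detected both. The PFJ signals were at least 2.792-fold (*Apoa1*) and 2.191-fold (*Apoc1*) above those of controls, with limma adjusted p-values of 1. *Apof*, an inhibitor of lipid transfer between lipoproteins in humans, was detected with PFJ only, on 2 arrays that read 6.28 and 6.95, and its bound was 1.025-fold. A second probe of *Apoc1* had a log2 difference of 1.59, with the same order among the PFJ arrays as the first.

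No control array detected these 3 genes, which were therefore tested only because they were high on PFJ arrays, and their differences cannot be set against those of the other members. The share of 33.3% thus supports no direction. Of the remaining 6, detected on all 5 arrays, none passed the threshold. *Apoa2*, the other main protein of high-density lipoprotein, read 13.17 and 12.77 in controls and 13.80, 13.54 and 12.87 with PFJ, so that the groups overlapped. *Apoc3*, which slows lipoprotein lipase, differed by 0.57 on the log2 scale (standard error 0.40) and *Apon* by 0.38 (standard error 0.42). *Apoc4*, *Apoa4* and *Apoe*, the ligand by which the liver takes up remnant particles, differed by -0.03, 0.02 and 0.00. The first and the last of these 3 read 15.77 to 15.98 on every array, and 34 tested genes had a raw signal over 60000 on some array where the highest raw signal was 71500, so that a difference could be compressed there. Over the 6 apolipoprotein genes detected on all 5 arrays, the median log2 difference was 0.20.

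Several carriers and protease inhibitors that the liver secretes were called in either direction. Of 20 tested genes, 6 were up-regulated at the unadjusted threshold (30%, against 1.64% of all genes). One direction down held 1 gene (5%, against 1.88% of all genes), and the median log2 difference of the list was 0.00. *Ttr*, the thyroid hormone and retinol carrier transthyretin, read 5.39 and 5.34 in controls and 6.78, 7.53 and 9.32 with PFJ, and was at least 3.113-fold higher. *Rnase4*, a secreted ribonuclease, read 5.03 and 5.25 against 6.30, 6.57 and 8.07, and was at least 1.672-fold higher. All PFJ arrays and no control array detected these 2 genes, and no control array detected *Serpina1a* or *Azgp1* below. The filter thus admitted these genes through the PFJ group alone, so that the count of 6 supports no direction. Over the 14 genes of the list detected on every array the median log2 difference was -0.02. Several of them, such as *Ahsg*, *Hp* and *Hpx* at 16.02 to 16.11 on every array, lay near the highest signals. A difference could be compressed there, as for *Apoe*, so that this median does not show that the list was unchanged. Of the alpha-1-antitrypsins, inhibitors of neutrophil elastase, *Serpina1d* read 6.02 and 6.50 against 7.49, 8.36 and 9.70, a log2 difference of 2.26 (standard error 0.62). *Serpina1b* had a log2 difference of 1.59 (standard error 0.64) on the probe that stood for the gene and of 3.33 on a second one, and *Serpina1a* one of 0.93 (standard error 0.34). These copies are close in sequence, and a probe may read more than 1 of them. The remaining up-regulated gene was *Azgp1*, the zinc-alpha-2-glycoprotein, detected on 2 PFJ arrays and no control array. The down-regulated one was *Lcn2*, a siderophore carrier of the acute phase, at 9.46 and 10.61 in controls and 9.0, 8.67 and 8.24 with PFJ, a log2 difference of -1.39 (standard error 0.40).

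Of the 7 tested hepatocyte markers, 3 were up-regulated at the unadjusted threshold (42.9%, against 1.64% of all genes), *Apoa1*, *Ttr* and *Serpina1a*. No control array detected these 3 genes and the filter admitted them through the PFJ arrays alone, so that the share supports no direction. The other 4 markers were detected on every array, had a positive log2 difference each and a median log2 difference of 0.40. *Cps1*, the first enzyme of the urea cycle, read 14.62 and 14.18 in controls and 14.62, 15.08 and 15.49 with PFJ, so that its groups overlapped by 1 array. The summed level of the 7 markers was 15.52 and 15.14 on the log2 scale in controls and 15.77, 15.85 and 16.10 with PFJ, and its part in the other differences was not tested. Such a sum weighs the brightest marker most, here *Cps1*. The median level of the 7 markers was 10.97 and 11.11 on the control arrays and 11.43, 10.91 and 11.29 on the PFJ arrays, so that the groups overlapped.

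Among the called genes of both directions, PFJ replicate 3 most often stood farthest from the controls. The highest of the 3 PFJ values was on PFJ replicate 3 in 41 of the 62 genes (66.1%), against 36.3% of all genes tested. The lowest was on PFJ replicate 3 in 38 of the 71 down-regulated genes (53.5%), against 35.2% of all genes. Among the up-regulated genes the lowest value was on PFJ replicate 1 with the highest on replicate 3 in 26 of the 62 (41.9%), against 15.2% of all genes. The mirrored order, highest on PFJ replicate 1 and lowest on replicate 3, was found in 23 of the 71 down-regulated genes (32.4%), against 15.4% of all genes. The genes were called on these same PFJ values, so that the departures from the shares of all genes could follow from that choice. Over all tested genes, PFJ replicate 3 had a median absolute log2 difference of 0.332 and 0.335 from control replicates 1 and 2. For PFJ replicates 1 and 2 these values were 0.229 to 0.277. The replicate numbers carry no order in the design. Of 14 genes with a log2 difference of at least 1 that were called higher and were detected on at most 1 control array, 12 were lowest on PFJ replicate 1 and highest on replicate 3, the others being *Plekhb1* and *Cyp2c67*.

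For these 12 genes the raw signal on each PFJ array was set against the mean raw signal of the 2 control arrays. The excess on PFJ replicate 1 was 13.3% to 32.9% of that on PFJ replicate 3, with a median of 22.6%, and on PFJ replicate 2 it was 34.3% to 72.4%, with a median of 48.1%. *Mup6* stood above its control mean by 502, 1499 and 2627 signal units on PFJ replicates 1, 2 and 3. *Apoa1* stood 84, 196 and 430 units above, and *Mat1a*, the liver form of the enzyme that makes S-adenosylmethionine, 46, 114 and 249 units. The excess thus kept similar proportions between arrays over genes whose excess on PFJ replicate 3 ran from 88 units for *Apof* to 5341 for *Mup2*. *Selenop*, the selenium carrier of plasma, showed 31% and 57.2%, and *Alas1*, the first enzyme of heme synthesis, 26.7% and 49.6%. *Cyp2c67* went the other way, with 179% on PFJ replicate 1. The set of 12 genes was picked for the order, so that the shares describe these arrays only, and what the shared proportions reflect was not tested. Nor was it tested whether the signals of these genes came from the NR liver transcripts themselves or from other RNA that the mouse probes read on the PFJ arrays, and the differences given for the genes are differences in probe signal.

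**Figure D3:**
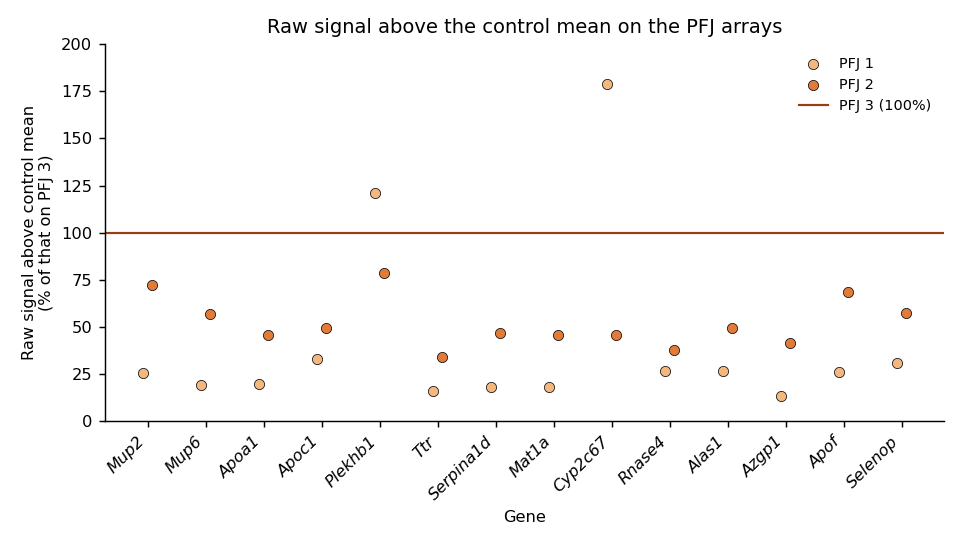
Raw signal above the control mean on PFJ replicates 1 and 2, as a percentage of that on PFJ replicate 3, for 14 genes called higher with a log2 difference of at least 1 and detection on at most 1 control array. In 12 genes the PFJ replicate 1 points lie between 13.3% and 32.9% and the PFJ replicate 2 points between 34.3% and 72.4%, while *Plekhb1* and *Cyp2c67* exceed 100% on PFJ replicate 1.

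In all, 12 genes (0.318%) were detected by every PFJ array but by neither control array, and 10 of them passed the unadjusted threshold. Such genes entered the test through the PFJ arrays alone and could hardly be lower there, so the count supports no direction. Beside *Mup6*, *Apoa1*, *Apoc1*, *Ttr* and *Rnase4* they included *Cyp2c67*, *Plp2*, *Bclaf1*, *Fam8a1*, *Bcl6b*, *Prdx1* and *Wls*. *Prdx1*, a peroxiredoxin that removes hydrogen peroxide, read 5.97 and 6.17 in controls and 6.30, 6.95 and 7.48 with PFJ and was at least 1.592-fold higher, but did not pass the unadjusted threshold. *Wls*, needed for the secretion of Wnt proteins, did not pass it either. *Plp2*, a membrane proteolipid, read 6.04 and 5.70 against 6.94, 6.78 and 6.61 and was at least 1.447-fold higher. For the transcription regulators *Bclaf1* and *Bcl6b* and for *Fam8a1* the bounds were 1.24-fold, 1.157-fold and 1.345-fold.

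In the lists of enzymes that handle foreign compounds, which were each small and do not cover all such enzymes, 3 genes were up-regulated at the unadjusted threshold. Of 15 tested cytochromes P450 of families 1 to 4, 1 was up-regulated (6.67%, against 1.64% of all genes) and 0 were down-regulated. A positive log2 difference was found in 12 of the 15, where 47.4% of all genes had one, and the median was 0.24. *Cyp2c67* read 6.13 and 5.90 in controls and 8.51, 7.10 and 8.19 with PFJ and was at least 3.228-fold higher. No control array detected it, so that the filter admitted it through the PFJ arrays alone and the share of 6.67% supports no direction. Of the 12 cytochromes P450 detected on every array none passed the threshold, and their median log2 difference was 0.20. *Cyp2e1*, which oxidises ethanol, *Cyp4f14*, a fatty acid hydroxylase, and *Cyp1a2*, which oxidises caffeine, had log2 differences of 0.37 (standard error 0.23), 0.57 (standard error 0.40) and 0.27 (standard error 0.27), with overlapping groups. Of 4 tested UDP-glucuronosyltransferases 1 was up-regulated (25%, against 1.64% of all genes). *Ugt2b36* read 14.93 and 14.65 in controls and 15.25, 15.57 and 15.55 with PFJ, levels far above background in both groups. Its PFJ arrays lay above its control arrays by a log2 difference of 0.67 (standard error 0.22), or 1.591-fold (adjusted p = 1 from limma). Of 21 other conjugation genes 1 was up-regulated (4.76%), the glutathione transferase *Gsto2*, at 6.30 and 6.28 in controls and 6.55, 7.11 and 7.39 with PFJ. Of 16 antioxidant genes none passed the threshold.

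The other genes with low p-values on the higher side belonged to different functions. *Vldlr*, the receptor for very low-density lipoprotein, read 6.78 and 7.32 in controls and 8.56, 8.13 and 9.51 with PFJ, a log2 difference of 1.68 (standard error 0.43). *Ciart*, a repressor in the circadian clock, read 7.90 and 7.69 against 8.69, 8.82 and 8.41. *Zfp763*, a zinc finger protein, read 7.07 and 7.22 against 7.85, 7.84 and 7.86. The groups were apart in all 3 genes, and the PFJ arrays of *Zfp763* differed by less than those of any other gene described here. Of 13 tested clock genes 2 were up-regulated, *Ciart* and *Alas1* (15.4%, against 1.64% of all genes). Of 13 tested genes of heme and iron 2 were also up-regulated (15.4%). These were *Alas1*, at 5.02 and 4.99 against 5.92, 6.47 and 7.67, and *Alad*, the next enzyme of the pathway, at 5.98 and 5.79 against 6.45, 6.22 and 6.89. Only PFJ arrays, 2 of the 3 for each gene, detected *Alas1* and *Alad*, with bounds of 1.363-fold and 1.214-fold. The filter admitted both through the PFJ group alone, so that the counts of the clock and heme lists support no direction. Over the 10 clock genes detected on every array the median log2 difference was 0.05.

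Of 22 tested enzymes of the urea cycle and amino acid breakdown, 15 had a positive difference, where 47.4% of all genes had one. Up-regulated was 1 of them, *Mat1a* (4.55%, against 1.64% of all genes), and the list median was 0.14. *Mat1a* read 4.90 and 4.76 in controls, where it was not detected, and 5.78, 6.82 and 8.27 with PFJ, and was at least 1.643-fold higher. The filter admitted it through the PFJ arrays alone, so that the share of 4.55% supports no direction. Over the 19 genes of the list detected on every array the median log2 difference was 0.17. *Hsd17b10*, a mitochondrial enzyme of isoleucine breakdown, had a log2 difference of 0.75 (standard error 0.33) and did not pass the threshold. Of 38 cytosolic ribosomal proteins 2 were up-regulated (5.26%, against 1.64% of all genes), and the median of the list was 0.05. These were *Rpl36al*, by a log2 difference of 0.64 (standard error 0.23), and *Rps7*, by 0.62 (standard error 0.23).

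On the lower side a single gene passed the adjusted threshold. *Qars*, the ligase that charges the transfer RNA of glutamine, read 8.35 and 8.13 on the control arrays and 5.04, 4.81 and 4.92 on the PFJ arrays. The raw signals were 477 and 400 against 144, 134 and 145, and only the control arrays detected the gene. Its log2 difference was -3.32 (standard error 0.20, adjusted p = 0.00866 from limma), and the control signal was at least 3.83-fold above the PFJ signal. The arrays of each group lay close together, with an SD of 0.16 in controls (n = 2) and 0.11 with PFJ (n = 3). The PFJ readings were undetected, so that their SD is a spread of background and not of the transcript, and it enters the standard error. Without background correction the log2 difference was -1.62 (adjusted p = 0.0494 from limma). The call rested on all 3 PFJ arrays, since the adjusted p from limma was 0.0535, 0.0563 and 0.0911 without PFJ replicate 1, 2 or 3 at log2 differences of -3.37, -3.24 and -3.39. Without control replicate 1 or 2 the gene was detected on too few arrays to be tested. It was likewise undetected on control replicates 3 and 4, where the raw signals were 153 and 140.

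**Figure D4:**
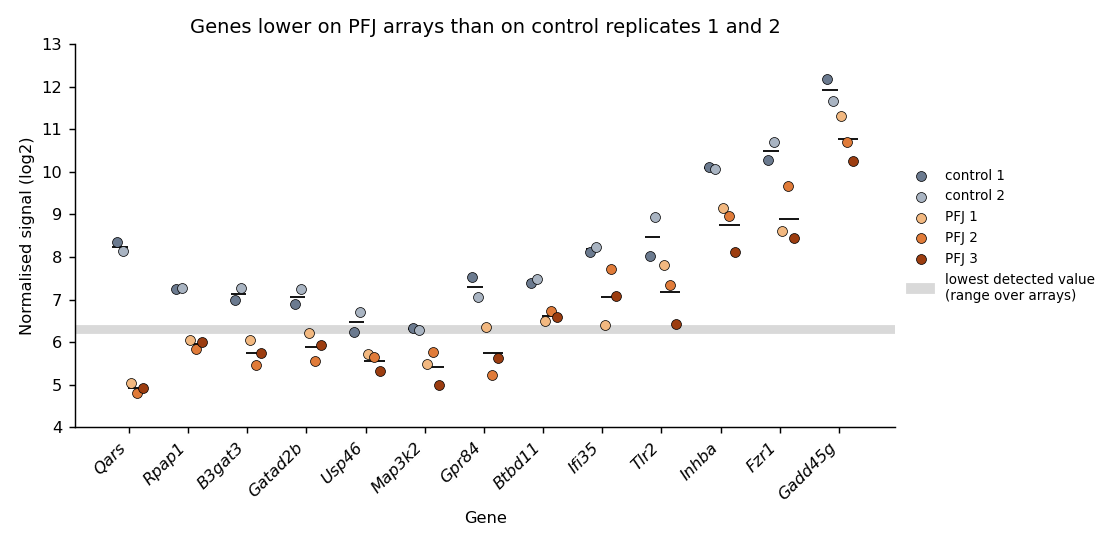
Genes with lower levels in the PFJ group. Points are the normalised log2 signals of 13 genes on each of the 5 arrays, short lines are group means, and the grey band is the range over arrays of the lowest signal that counted as detected. The *Qars* points of the PFJ arrays lie at 4.81 to 5.04, below those of the controls at 8.13 and 8.35, and the groups are apart in all 13 genes.

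A total of 30 genes (0.795%) were detected by both control arrays and by none of the PFJ arrays, and 20 of them passed the unadjusted threshold. Here too the filter admitted them through 1 group alone. *Rpap1*, which binds RNA polymerase II, read 7.25 and 7.27 in controls and 6.06, 5.83 and 6.01 with PFJ and was at least 1.933-fold lower (limma adjusted p of 0.453). *B3gat3*, which completes the linker of proteoglycan chains, read 7.00 and 7.28 against 6.06, 5.46 and 5.74 and was at least 1.78-fold lower. *Gatad2b*, a subunit of the NuRD chromatin remodeller, read 6.89 and 7.24 against 6.21, 5.55 and 5.93 and was at least 1.694-fold lower. In the control group these genes lay within about 1 log2 unit of the detection limit. The bounds were smaller for the other genes with the lowest p-values or highest bounds, from 1.114-fold for *Tenm4* to 1.358-fold for *Zfp710*, with *Usp46*, a deubiquitinase, *Idua*, a lysosomal enzyme of heparan sulfate breakdown, *Pcolce*, *Snx2*, *Tkfc* and *Rbm38* between them. *Map3k2*, a kinase at the head of a MAP kinase cascade, read 6.34 and 6.29 in controls and 5.50, 5.77 and 4.99 with PFJ, a log2 difference of -0.90 (standard error 0.27). Its control signal sat at the detection limit, and its bound was 1.006-fold.

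Among genes measured on all 5 arrays, 37 were down-regulated at the unadjusted threshold, by -0.50 to -1.59 on the log2 scale, and 29 were up-regulated, by 0.46 to 1.68. *Fzr1*, which switches on the anaphase-promoting complex, read 10.28 and 10.70 in controls and 8.6, 9.67 and 8.44 with PFJ, a log2 difference of -1.59 (standard error 0.41). A second probe of the gene, also detected on every array, had a log2 difference of -0.10, so that the probes disagreed. *Inhba*, a subunit of activins, read 10.11 and 10.07 against 9.16, 8.96 and 8.11, a log2 difference of -1.35 (standard error 0.34). *Gadd45g*, a growth arrest gene, read 12.18 and 11.66 against 11.31, 10.71 and 10.26, and its second probe differed by -0.83 where the first differed by -1.16. *Btbd11* read 7.38 and 7.48 against 6.49, 6.74 and 6.60. The PFJ arrays lay below both control arrays in each of these genes. *Gpr84*, a receptor of myeloid cells for medium-chain fatty acids, and *Mob2*, a regulator of NDR kinases, were detected on both control arrays and on 1 PFJ array, with log2 differences of -1.56 (standard error 0.37) and -0.87 (standard error 0.23). Over all called genes, 16 further probes of 15 genes were kept, and 12 of the 16 differed in the same direction as the probe that stood for the gene.

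Most genes of interferon response and antigen presentation had a lower mean in the PFJ group. Of 17 tested, 14 had a negative log2 difference, where 52.6% of all genes had one, and the median difference was -0.48. At the unadjusted threshold 3 were down-regulated (17.6%, against 1.88% of all genes) and 0 were up-regulated. The groups overlapped in the median level of the list, which was 9.52 and 8.93 on the control arrays and 9.27, 8.64 and 9.09 on the PFJ arrays. The called members were as follows. *Ifi35*, an interferon-induced protein, read 8.12 and 8.23 in controls and 6.40, 7.73 and 7.09 with PFJ. *Tlr2*, a receptor for bacterial lipoproteins, read 8.02 and 8.93 against 7.82, 7.34 and 6.43. *Ly6e*, a membrane protein induced by interferon, read 7.88 and 7.94 against 7.52, 7.31 and 7.07. *Psmb10*, a catalytic subunit of the immunoproteasome, differed by -0.63 (standard error 0.27) and did not pass the threshold. The median log2 difference of this list was 0.00 when all probes were tested without regard to detection. The 2 tested Kupffer cell and macrophage markers had a median of -0.31, with summed log2 levels of 10.44 and 10.10 in controls and 9.92, 9.66 and 10.34 with PFJ, and their part in this difference was not tested. Of the 8 such markers with a probe, 6 were not detected on any of the 5 arrays.

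**Figure D5:**
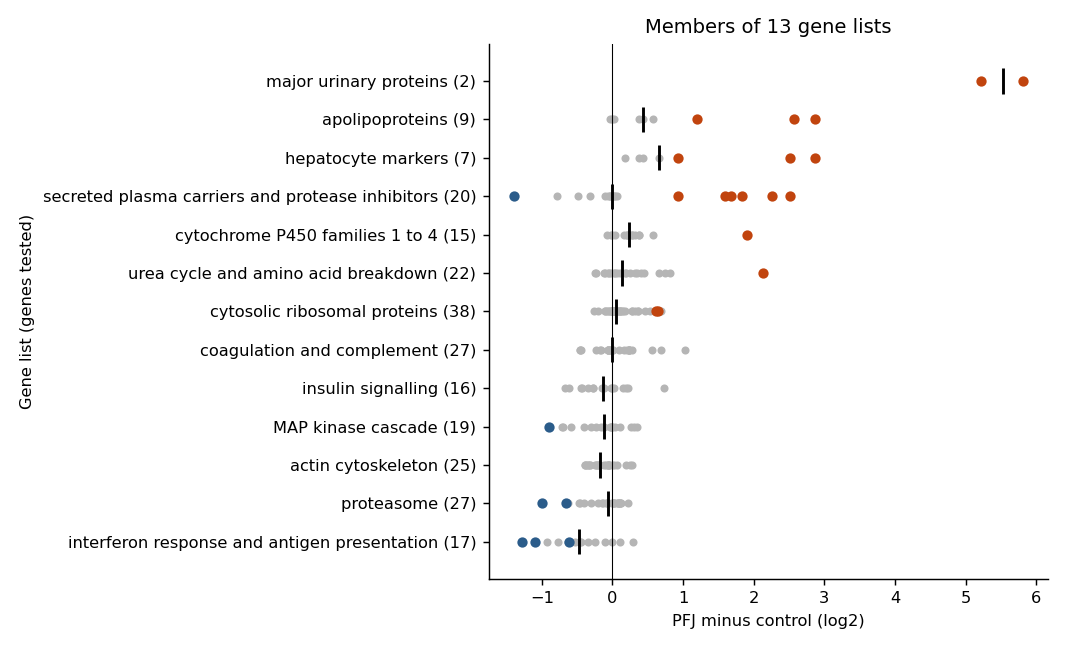
Log2 differences of the members of 13 gene lists between PFJ and control arrays. Each point is a tested gene, red and blue points passed an unadjusted p under 0.05 in the higher and lower direction, and black bars are list medians. The medians run from -0.48 for interferon response and antigen presentation to 5.52 for the 2 major urinary proteins, and lie between -0.18 and 0.66 in the other 11 lists.

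In lists tied to protein turnover, signalling, matrix and chromatin, 0 to 2 genes each were down-regulated, set here beside the 1.88% of all genes. Of 27 proteasome genes 2 were down-regulated (7.41%), *Psmd2*, a subunit of the regulatory particle, by -0.66 (standard error 0.19) and *Psme4*, a proteasome activator, by -1.0 (standard error 0.33), and the list median was -0.06. Of 19 tested genes of the MAP kinase cascade 1, *Map3k2*, was down-regulated (5.26%), 13 had a negative difference and the median was -0.12, while *Map3k11* differed by -0.24 (standard error 0.21). Of 16 insulin signalling genes none passed the threshold and 11 had a negative difference, with a median of -0.13. Its members with the lowest p-values, *Pi4ka*, a phosphatidylinositol kinase, and *Pik3r3*, a regulatory subunit of phosphatidylinositol 3-kinase, differed by -0.43 (standard error 0.22) and -0.61 (standard error 0.31). Of 24 genes of collagen and matrix 1 was down-regulated (4.17%), *Pcolce*, an enhancer of procollagen processing, at 6.36 and 6.61 in controls and 5.61, 5.98 and 5.99 with PFJ. Of 23 chromatin regulators 2 were down-regulated (8.7%), *Gatad2b* and *Smarca4*, the ATPase of a SWI/SNF remodeller, which differed by -0.66 (standard error 0.27). No PFJ array detected *Map3k2*, *Pcolce* or *Gatad2b*, and the filter admitted them through the control arrays alone. The shares of the MAP kinase, matrix and chromatin lists therefore support no direction. Of 15 immediate early and growth arrest genes 2 were down-regulated (13.3%), *Fzr1* and *Gadd45g*.

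In the lists that follow, most of them of metabolism, few genes passed the unadjusted threshold. The lists do not cover all metabolic genes, and some called genes of metabolism lay outside them. In the lists of fatty acid oxidation (25 genes tested), oxidative phosphorylation (46), lipogenesis (12), cholesterol synthesis and uptake (10), bile acids (7), coagulation and complement (27), heat shock (22), nuclear receptors (21) and the growth hormone axis (10) none passed the unadjusted threshold, and the medians lay between -0.12 and 0.00. Of 15 genes of glycolysis, gluconeogenesis and glycogen 1 was down-regulated (6.67%, against 1.88% of all genes). It was *Tkfc*, which phosphorylates glyceraldehyde from fructose, at 7.12 and 6.32 in controls and 6.23, 5.82 and 5.16 with PFJ. No PFJ array detected *Tkfc*, so that the filter admitted it through the control arrays alone and the share supports no direction. The actin cytoskeleton list had a median of -0.18 with 19 of 25 genes negative and 0 called.

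Control replicates 3 and 4, normalised with the other arrays, did not stand on 1 side of the called genes. Both lay below every PFJ array in 36 of the 62 up-regulated genes (58.1%, against 34.8% of all genes). They lay above every PFJ array in 14 of them (22.6%, against 27.6%). Among the 71 down-regulated genes they lay above every PFJ array in 27 (38%, against 27.6% of all genes) and below in 14 (19.7%, against 34.8%). The genes were called on the same PFJ values, so that these departures from the shares of all genes could follow from that choice and support no direction. *Vldlr* read 12.21 and 12.41 and *Plp2* 9.36 and 9.46 on these 2 arrays, well above the PFJ arrays, so that both genes had a negative log2 difference with all 7 arrays in the fit, -0.89 and -0.78. *Inhba* read 5.40 and 5.20 there, and its difference was 1.12 over the 7 arrays.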

How the data were processed

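Arrays labelled as 4 control and 3 PFJ livers were analysed here. Per the methods, the authors selected RNA samples of the highest integrity in each condition, hybridised them to the Illumina MouseRef-8 Version 2 BeadChip and removed outlier samples by clustering. The deposited file held, per the file headers, a raw signal intensity and a detection p-value for each probe and array, as given by the authors' BeadStudio or GenomeStudio software (GenomeStudio 2011.1 in the submitters' processing notes). The deposited value table held the authors' rank-invariant normalised signal intensity after background subtraction. It was used as an alternative only. Of 25697 probes, 23141 carried 1 gene symbol, none carried several and 2556 were not listed in the annotation used here.

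Intensities of the 5 arrays were background corrected and quantile normalised by neqc (limma 3.58.1, R 4.3.3) with an offset of 16. Probes with a detection p-value under 0.01 on at least 2 of the 5 arrays were kept (5122, of which 461 without a symbol were left out of the gene test), and the kept probe with the highest mean stood for its gene. Groups were compared with lmFit and eBayes of limma, with Benjamini-Hochberg adjustment over 3773 genes, a procedure that was tested on simulated data. An exact permutation of 3 against 2 arrays has 10 arrangements and cannot go below a one-sided p of 0.1. Where no array of a group detected a probe, its fold is a bound, from the mean of the brighter group against the mean, per array, of the higher of the lowest detected signal and the signal of the probe itself. On each of the 7 arrays 4689 to 5137 probes were detected, and the number of arrays limits the precision.

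The arrays, members and gene lists were chosen with earlier results of these data known. Genes named are 5 given for the comparison, the 10 with the lowest p in each direction, the 8 with the highest bound in each direction, all tested major urinary protein and apolipoprotein genes, and up to 3 members of each list with the lowest p plus up to 2 textbook members. *Serpina1b*, *Azgp1*, *Plekhb1*, *Selenop*, *Bclaf1*, *Fam8a1*, *Bcl6b*, *Wls*, *Tenm4* and *Idua* were named after their values were seen. Alternatives were the detection filter, background correction, offset, normalisation, probe choice, variance model, the replicate number as a block, all 7 arrays, and each array left out.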

Additional observations from a re-analysis of the deposited data

Results flagged for a closer look

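The tested kidney markers *Aqp1*, *Atp1b1* and *Slc12a3* had a median log2 level of 14.30 on control replicate 3 and 14.22 on control replicate 4, arrays that the comparison did not use, and of 10.97 to 11.31 on the 5 arrays it used, control replicates 1 and 2 included. It was listed here as a signal outside the arrays compared, and the difference between the arrays was not tested.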

How the results depend on the processing

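With detection required on at least 3 arrays, on all 5, or with all 7 arrays in the fit, 0 genes were lower at the adjusted threshold in place of 1, in the first 2 cases because *Qars* was detected on 2 arrays only and was not tested. Requiring detection on all 5 left 35 genes higher at the unadjusted threshold, and testing 16110 genes with no filter gave 305 higher and 382 lower. Leaving out 1 array at a time gave 49 to 103 genes higher and 22 to 146 lower at the unadjusted threshold, and 0 higher and 0 lower at the adjusted one. With the replicate block, 73 genes passed the unadjusted threshold in each direction, 2 were higher (*Mup2* and *Mup6*, adjusted p = 0.00114 and 0.0068 from limma) and 1 lower at the adjusted one. The labels do not say that the numbers pair animals, and the deviations of same-numbered arrays from their group means correlated at 0.217 and 0.316 over genes. The remaining counts stayed within 1.5 times.

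Of 1111 values of named genes under 17 alternatives, 1089 kept their sign. With all 7 arrays it turned for *Apoc4* (4.33), *Lcn2* (0.17), *Plp2* (-0.78), *Vldlr* (-0.89), *Inhba* (1.12), *Psmb10* (0.40) and *Wls* (-1.26). With the authors' values it turned for *Apoa4* (-0.07) and *Apoe* (-0.02), with the replicate block for *Apoc4* (0.02) and *Apoe* (-0.01), and with equal medians for *Apoc4* (0.00). With 1 array left out it turned for *Apon* (-0.08), *Cyp4f14* (-0.06), *Apoc4* (0.02 to 0.03), *Apoa4* (-0.26 to -0.03) and *Apoe* (-0.04 to -0.01). Leave-one-out values ran from -0.08 to 0.84 for *Apon*, -0.06 to 1.19 for *Cyp4f14*, -0.10 to 0.03 for *Apoc4*, -0.26 to 0.42 for *Apoa4* and -0.04 to 0.04 for *Apoe*. The cause was not tested.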
